A study of Mus musculus with 15 samples.

Results

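Gfap, Vim, Serpina3n, Timp1, Lcn2, Osmr, Stat3, Cd44, S1pr3 and Aspg are genes that astrocytes, the star-shaped support cells of the brain, raise when the tissue is injured or inflamed. They were picked by name, as the 10 entries of the deposited expression tables that carry these symbols, of 21878 entries in all. The RNA came from prefrontal forebrain cortex of mice that were 8 months old at the outset, drank nicotine or water for 3 months and were then tested for behaviour. DKO-N mice were conditional presenilin double knockouts that drank nicotine at 100 µg/ml (3 libraries), and DKO-B mice were knockouts of the same kind that drank water (4 libraries). WT-N mice were wildtype C57BL6/J animals on the same nicotine solution (4 libraries), and WT-B mice were wildtype C57BL6/J animals on water (4 libraries). The labels give neither the driver and cell type of the conditional deletion, nor the sex of the mice, nor whether each library came from a separate mouse. The p-values therefore measure the spread between libraries, which may be technical.

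A reactive astrocyte thickens its processes, rebuilds its cytoskeleton of intermediate filaments and secretes protease inhibitors and lipocalins. Cytokines of the interleukin-6 family, such as oncostatin M, bind receptors that share the signalling subunit gp130, Janus kinases then phosphorylate the transcription factor STAT3, and STAT3 turns on genes such as Gfap in the nucleus. Several of these genes are not private to astrocytes: microglia, vessel cells and leukocytes can also express Vim, Cd44, Stat3, Timp1 or Lcn2. In bulk tissue, more cells of a type and more RNA per cell cannot be told apart.

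Levels are FPKM, fragments scaled to gene length and library depth, so they can be set side by side between genes. Library totals were 16334904 to 19469215 reads in genes. All knockout libraries lay apart from all wild-type libraries on the leading principal component, which carried 64% of the variance. Psen2, a targeted gene that encodes a catalytic subunit of gamma-secretase, was at 1.29 to 1.76 FPKM in the 7 knockout libraries and at 5.44 to 7.14 FPKM in the 8 wild-type libraries. Genes of the Y chromosome separated libraries within the nicotine groups. Ddx3y, a Y-linked helicase gene, was at 0.0989 FPKM in DKO-N replicate 2 and at 12.9 and 13.1 FPKM in the other DKO-N libraries, at 10.6 to 13 FPKM in DKO-B, at 0.0228 to 0.065 FPKM in WT-N and at 9.96 to 12.8 FPKM in WT-B. Nicotine and the lack of Y-linked expression cannot be told apart in the wild-type groups, and DKO-N replicates 1 and 3 differ from WT-N in Y-linked expression as well as in genotype.

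On water, 9 of the 10 genes were higher in the knockout cortex than in the wild-type cortex (DKO-B against WT-B), and none was lower. A call is an adjusted p under 0.05 in limma, with Benjamini-Hochberg adjustment over the 12728 genes that reached 1 FPKM in 3 or more libraries. In the same comparison 38% of all tested genes were called, 25.5% higher and 12.4% lower. The median log2 change was 0.95 over the 10 genes and 0.048 over all tested genes. Among the 9 called genes Gfap had the highest ratio of mean FPKM, at 13.6, followed by Serpina3n at 7.02 and Aspg at 5.42. Lcn2 was the gene without a call, and its ratio is not ranked since its WT-B libraries held 1 to 3 reads each. Changes are differences of log2(FPKM + 1), a scale that understates the change of genes under about 1 FPKM. Of the 9 called genes, Aspg and Osmr passed the filter mainly, and Cd44 and Timp1 only, through their knockout libraries. Of the 8 wild-type libraries, 2 reached 1 FPKM for Aspg, 1 for Osmr and none for Cd44 or Timp1. Timp1 reached 1 FPKM in 3 libraries, the least that the filter allows. Without the filter 9 of the 10 genes were called, and with a filter at 5 FPKM Osmr, Cd44 and Timp1 were not tested.

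**Figure D1:**
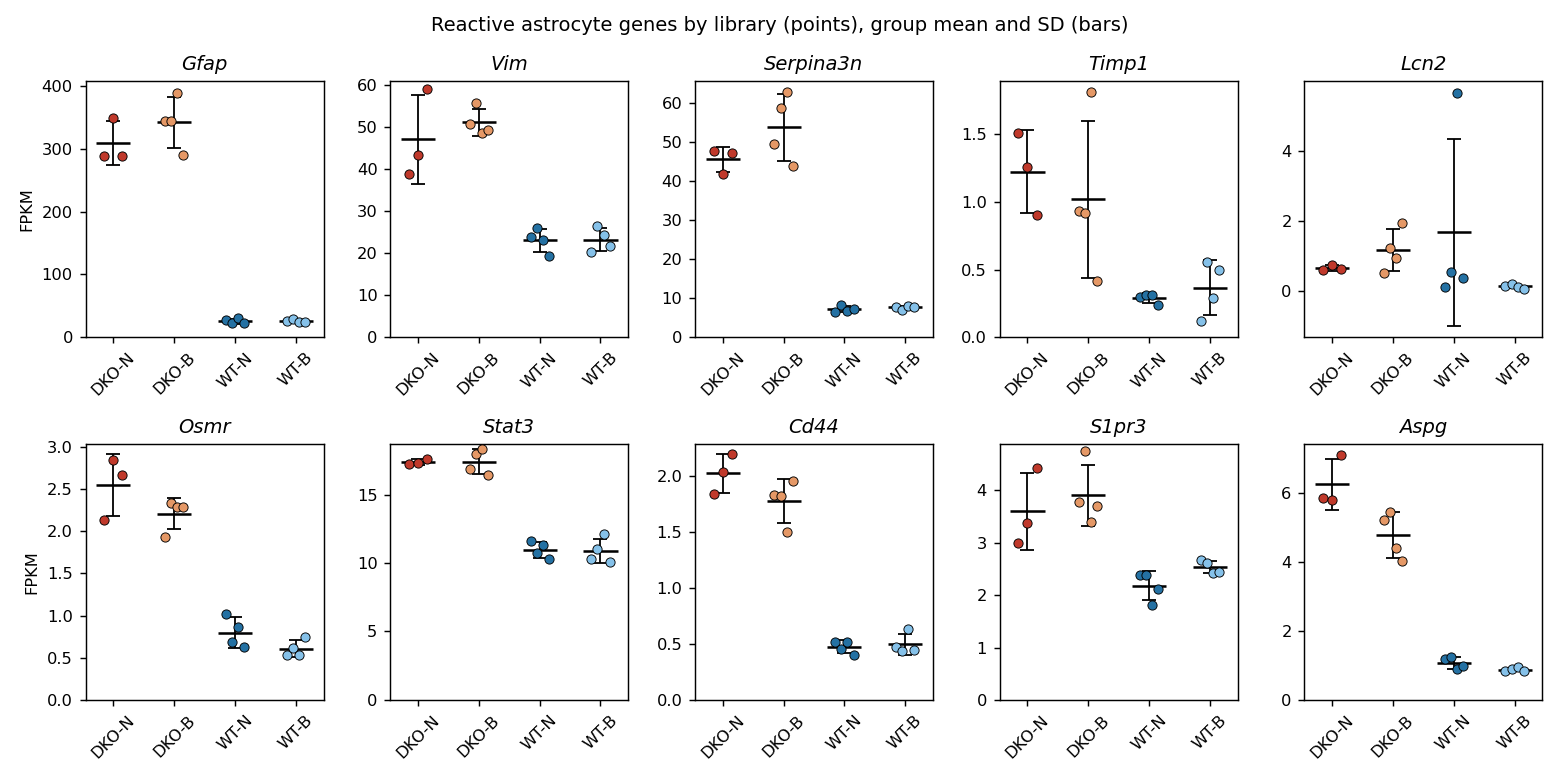
FPKM (vertical axis, linear, own range in each panel) of the 10 genes in each library (points) with the group mean and SD (bars), for DKO-N (n = 3), DKO-B, WT-N and WT-B (n = 4 each). Gfap sits at 288 to 389.6 FPKM in the knockout libraries and at 21.9 to 30.4 FPKM in the wild-type libraries, and 1 WT-N library reaches 5.65 FPKM of Lcn2.

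Intermediate filaments give the astrocyte its shape, and Gfap encodes the filament protein by which reactive astrocytes are usually recognised. Gfap (gene 14580, GRCm38.p6 chromosome 11, 102887336 to 102897200, minus strand) had 289, 349 and 288 FPKM in DKO-N and 344, 345, 389.6 and 290.4 FPKM in DKO-B, against 27.6, 21.9, 30.4 and 23 FPKM in WT-N and 25.1, 28.3, 23.9 and 23.6 FPKM in WT-B. The lowest knockout library lay far above the highest wild-type library. On water Gfap averaged 342 ± 40.6 FPKM in DKO-B and 25.2 ± 2.15 FPKM in WT-B (SD, n = 4 each), and its log2 change was 3.71 (SE 0.10, limma adjusted p = 1.87e-13). That change ranked 3 among the 12728 tested genes. Between 19317 and 29532 reads in each DKO-B library stood behind these values, and 1730 to 2085 in each WT-B library.

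The start of Gfap is shown because it was the one promoter of the 10 that held the palindrome TTCNNNGAA, the core pattern bound by STAT dimers. The RefSeq window was 300 bases long, from 250 bases before the start to 50 after it, and the pattern reads the same on both strands. It lay in 1 of the 10 member promoters and in 8.3% of 32851 mouse promoters of that length. The stretch runs from 130 bases before the Gfap start to 20 bases after it, on the minus strand of GRCm38.p6 at chr11:102897181-102897330, and capitals mark the pattern.
Gfap start: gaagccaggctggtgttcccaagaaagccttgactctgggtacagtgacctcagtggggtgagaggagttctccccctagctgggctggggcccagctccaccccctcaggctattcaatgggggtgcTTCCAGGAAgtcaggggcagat
Its first base lies 2 bases upstream of the annotated start. TGANTCA, the pattern of AP-1 factors, which also reads the same on both strands, lay in 1 of the 10 member promoters, that of Osmr, and in 7.81% of all. A match is letters in a window and does not show binding.

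Vim encodes vimentin, the filament partner of GFAP in reactive and developing astrocytes and a filament of vessel cells and microglia. Vim (gene 22352, chromosome 2, 13574311 to 13582826) had 38.8, 43.3 and 58.9 FPKM in DKO-N and 50.7, 55.7, 48.6 and 49.3 FPKM in DKO-B, against 23.8, 26, 23 and 19.3 FPKM in WT-N and 20.2, 26.4, 24.4 and 21.7 FPKM in WT-B. No knockout library overlapped a wild-type library, and DKO-N replicates 1 and 3 lay at the low and high ends of the knockout range. On water the log2 change was 1.11 (SE 0.11, limma adjusted p = 7.57e-07), with a ratio of mean FPKM of 2.2. Gfap and Vim overlapped in level in wild-type cortex and stood apart in the knockout. The Gfap to Vim ratio was 6.72 ± 0.944 in DKO-B and 1.09 ± 0.109 in WT-B (SD, n = 4 each), and 6.8 ± 1.68 in DKO-N (SD, n = 3) and 1.13 ± 0.203 in WT-N (SD, n = 4).

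Other genes of the filament network were called in both directions. Of 11 tested genes of intermediate filaments and their linkers, 2 were higher, 5 lower and 4 not called in DKO-B against WT-B. Over all tested genes 25.5% were called higher and 12.4% lower. The listed genes that fell were led by neuronal filaments and a linker. Nefl, the neurofilament light chain, averaged 139 ± 9.08 FPKM in DKO-B and 186 ± 9.52 FPKM in WT-B (log2 change -0.41, limma adjusted p = 1.01e-05). Nefm, the medium chain, averaged 68.4 ± 9.31 FPKM in DKO-B and 101 ± 7.88 FPKM in WT-B (log2 change -0.56, limma adjusted p = 3.67e-04). Plec, the linker plectin, fell by 0.25 on the log2 scale. The 2 listed genes that rose were Nefh, the heavy chain, at a log2 change of 0.30, and Des, the muscle filament desmin, at 0.31. The call of Des was lost after rescaling. After median-of-ratios rescaling 1 was higher and 6 lower. Without WT-B replicate 3, 4 genes in place of 7 were called. In DKO-N against WT-N none was higher and 3 were lower, Nefl, Nefm and Plec.

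Serpina3n encodes a secreted serine protease inhibitor, related to human alpha-1-antichymotrypsin, that is a standard marker of reactive astrocytes. Serpina3n (gene 20716, chromosome 12, 104406646 to 104414334) had 47.7, 41.9 and 47.2 FPKM in DKO-N and 49.6, 58.9, 62.9 and 44 FPKM in DKO-B, against 6.57, 8.22, 6.72 and 7.22 FPKM in WT-N and 7.84, 7.08, 7.97 and 7.79 FPKM in WT-B. All knockout libraries lay above all wild-type libraries, and the DKO-B libraries spread more widely than the WT-B ones. The log2 change on water was 2.65 (SE 0.09, limma adjusted p = 1.66e-12), rank 8 among tested genes. Serpina3n lies in a cluster of close copies, so shared reads could be split between them. None of the other 9 cluster genes in the tables passed the filter, and the highest group mean among them was 0.137 FPKM, in Serpina3g.

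Timp1 encodes a secreted inhibitor of matrix metalloproteinases, and it was close to the limit of what these libraries could show. Timp1 (gene 21857, chromosome X, 20870166 to 20874737) had 1.51, 1.26 and 0.902 FPKM in DKO-N and 0.933, 0.92, 1.81 and 0.413 FPKM in DKO-B, against 0.295, 0.314, 0.311 and 0.24 FPKM in WT-N and 0.119, 0.559, 0.289 and 0.498 FPKM in WT-B. These levels stood on 6 to 30 reads per knockout library and 2 to 9 reads per wild-type library. DKO-B overlapped WT-B through 1 library, DKO-B replicate 4, whereas all DKO-N libraries lay above all WT-N libraries. The log2 change was 0.53 on water (SE 0.16, limma adjusted p = 0.0141) and 0.78 on nicotine (SE 0.17, limma adjusted p = 0.00213). The call on water was lost without WT-B replicate 1, where the log2 change was 0.44 (limma adjusted p = 0.0518). Timp1 lies inside the neuronal gene Syn1 on the opposite strand, with no shared exon bases in GENCODE. It is X-linked, and the groups on nicotine differ in Y-linked expression.

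Timp2 and Timp3, relatives of Timp1, and the metalloproteinase gene Mmp14 were more abundant than Timp1. Of 10 tested genes of TIMP inhibitors and their metalloproteinases, 6 were higher, 1 lower and 3 not called in DKO-B against WT-B, and 5 were higher after rescaling. Timp2 averaged 119 ± 3.87 FPKM in DKO-B and 78.6 ± 5.91 FPKM in WT-B, and Timp3 29.9 ± 1.6 FPKM in DKO-B and 22.9 ± 0.694 FPKM in WT-B. Mmp14, a membrane-bound metalloproteinase, averaged 6.1 ± 0.611 FPKM in DKO-B and 3.58 ± 0.168 FPKM in WT-B (SD, n = 4 each). Their log2 changes were 0.59, 0.37 and 0.63 (limma adjusted p = 4.38e-07, 5.63e-06 and 8.46e-06). On nicotine 3 of the 10 were higher and 1 lower. Among all tested genes 25.5% were called higher on water and 24.6% on nicotine.

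Lcn2 encodes lipocalin-2, a secreted binder of bacterial iron carriers that reactive astrocytes and neutrophils make, and its call depended on 1 wild-type library and on the scale of the test. Lcn2 (gene 16819, chromosome 2, 32384637 to 32387739) had 0.59, 0.75 and 0.628 FPKM in DKO-N and 0.519, 1.22, 0.945 and 1.94 FPKM in DKO-B, against 0.123, 0.524, 5.65 and 0.376 FPKM in WT-N and 0.124, 0.194, 0.12 and 0.065 FPKM in WT-B. Every DKO-B library, with 8 to 27 reads, lay above every WT-B library, with 1 to 3 reads. WT-N replicate 3, with 87 reads, lay above all other libraries of the study. In the fit over all 15 libraries the log2 change on water was 0.90 (SE 0.38, limma adjusted p = 0.0729), which is not a call. WT-N replicate 3 enters this comparison through the shared estimate of the spread and through the filter. Lcn2 reached 1 FPKM in 3 libraries, DKO-B replicates 2 and 4 and WT-N replicate 3. It therefore passed the filter only with WT-N replicate 3 counted. Without that library, but with the filter still set on all 15 libraries, the change was 0.90 (SE 0.15) and was called (limma adjusted p = 2.48e-04). With that library kept it was also called with a pseudocount of 0.1 FPKM (2.37, limma adjusted p = 0.0102) and with limma voom on the reads (2.82, limma adjusted p = 0.0168). On nicotine the log2 change was -0.27 (SE 0.41, limma adjusted p = 0.65), and without that library it was 0.31 (SE 0.17, limma adjusted p = 0.183). Summed over 6 neutrophil markers, WT-N replicates 1 to 4 had 2.31, 6.18, 5.45 and 2.69 FPKM, so replicate 3 was not the highest of its group. The sums were 2.68 to 10.4 FPKM in DKO-N, 2.8 to 7.21 FPKM in DKO-B and 1.59 to 3.66 FPKM in WT-B, and Ly6g and Elane were at 0 in every DKO-B and WT-B library. Their part in the Lcn2 levels was not tested. Of the lipocalin-2 receptors, Slc22a17 averaged 200.4 ± 7.28 FPKM in DKO-B and 186 ± 6.38 FPKM in WT-B, a log2 change of 0.10 whose call was lost after rescaling. Lrp2 was under 0.1 FPKM in every library.

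Osmr encodes the receptor chain that joins gp130 to bind oncostatin M. Osmr (gene 18414, chromosome 15, 6813568 to 6874968) had 2.13, 2.84 and 2.67 FPKM in DKO-N and 1.93, 2.33, 2.29 and 2.29 FPKM in DKO-B, against 1.02, 0.683, 0.867 and 0.625 FPKM in WT-N and 0.529, 0.618, 0.531 and 0.745 FPKM in WT-B. The genotypes did not overlap, and 3 of the 4 DKO-B libraries lay within 2.29 to 2.33 FPKM. The log2 change on water was 1.00 (SE 0.09, limma adjusted p = 1.31e-07), with a ratio of mean FPKM of 3.65.

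Osmr binds its ligand together with gp130, whose transcript was more abundant than that of Osmr, while transcripts of the ligands were scarce. Osm, which encodes oncostatin M, averaged 0.19 ± 0.0383 FPKM in DKO-N, 0.197 ± 0.0723 FPKM in DKO-B, 0.0643 ± 0.049 FPKM in WT-N and 0.0499 ± 0.044 FPKM in WT-B, below the filter and not tested. Il6 had a group mean of at most 0.0243 FPKM. Of 9 tested ligands, receptors and Janus kinases of the interleukin-6 family, 4 were higher and 5 not called on water. The share of all tested genes called higher was 25.5%. Il6st, which encodes gp130, averaged 20.9 ± 1.03 FPKM in DKO-B and 15.7 ± 0.632 FPKM in WT-B (log2 change 0.39, limma adjusted p = 7.74e-04). Il6ra, the interleukin-6 receptor, averaged 2.25 ± 0.258 FPKM in DKO-B and 1.15 ± 0.122 FPKM in WT-B (log2 change 0.59, limma adjusted p = 4.91e-05). Cntf, an astrocyte-made cytokine, averaged 1.4 ± 0.503 FPKM in DKO-B and 0.589 ± 0.12 FPKM in WT-B (log2 change 0.57, limma adjusted p = 0.00166). Cntf passed the filter only through knockout libraries, as no wild-type library reached 1 FPKM. Tyk2, a Janus kinase, was the fourth, and lost its call after rescaling. On nicotine 4 of the 9 were higher as deposited and 1 after rescaling, Il6ra. The count on nicotine was also 2 in place of 4 without DKO-N replicate 3 or without WT-N replicate 1, 2 or 3.

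Stat3 encodes the transcription factor downstream of these receptors, and its change was smaller than that of Osmr. Stat3 (gene 20848, chromosome 11, 100886806 to 100939594) had 17.2, 17.3 and 17.6 FPKM in DKO-N and 16.9, 18, 18.3 and 16.4 FPKM in DKO-B, against 11.6, 10.7, 11.3 and 10.3 FPKM in WT-N and 10.3, 11, 12.1 and 10.1 FPKM in WT-B. The genotypes were clear of each other under both drinks. The log2 change was 0.63 on water (SE 0.05, limma adjusted p = 1.18e-07) and 0.62 on nicotine (SE 0.06, limma adjusted p = 4.79e-07). Stat3 shares 72 of 9527 exon bases with Stat5a on the opposite strand, and Stat5a averaged at most 0.7 FPKM in any group. Of 4 other tested STAT genes, 3 were higher on water as deposited and none after rescaling. Stat6 averaged 5.85 ± 0.224 FPKM in DKO-B and 4.74 ± 0.548 FPKM in WT-B, and its log2 change of 0.26 had a limma adjusted p of 0.0207 as deposited and 0.0521 after rescaling. The 3 calls on water were down to none without WT-B replicate 2, and to 1 without DKO-B replicate 2 or 4. On nicotine 3 of the 4 were higher, 2 after rescaling and 1 without DKO-N replicate 2. Beside these counts, 25.5% of all tested genes were called higher on water and 24.6% on nicotine.

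Among 9 feedback and target genes of STAT3, 7 were higher, 1 lower and 1 not called on water, and 5 were higher and 1 lower after rescaling. Over all tested genes 25.5% were called higher and 12.4% lower on water as deposited. Bcl3, an NF-kappaB cofactor, averaged 1.61 ± 0.338 FPKM in DKO-B and 0.179 ± 0.162 FPKM in WT-B (log2 change 1.15, limma adjusted p = 2.29e-06). No wild-type library reached 1 FPKM of Bcl3, so it passed the filter only through knockout libraries. Myc averaged 1.96 ± 0.226 FPKM in DKO-B and 1.09 ± 0.0938 FPKM in WT-B (log2 change 0.50, limma adjusted p = 1.27e-05). Socs3, the feedback inhibitor of the pathway, had a log2 change of 0.38 (limma adjusted p = 0.00325). The gene that fell was Junb, an AP-1 subunit that neuronal activity also drives. It averaged 24.1 ± 4.19 FPKM in DKO-B and 57.5 ± 3.89 FPKM in WT-B (log2 change -1.24, limma adjusted p = 1.23e-05). On nicotine 6 of the 9 were higher, 5 after rescaling, and 3 not called, where 24.6% of all tested genes were called higher. Junb was among the uncalled, at 27.2 ± 4.79 FPKM in DKO-N (SD, n = 3) and 36.5 ± 10.3 FPKM in WT-N (SD, n = 4).

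**Figure D2:**
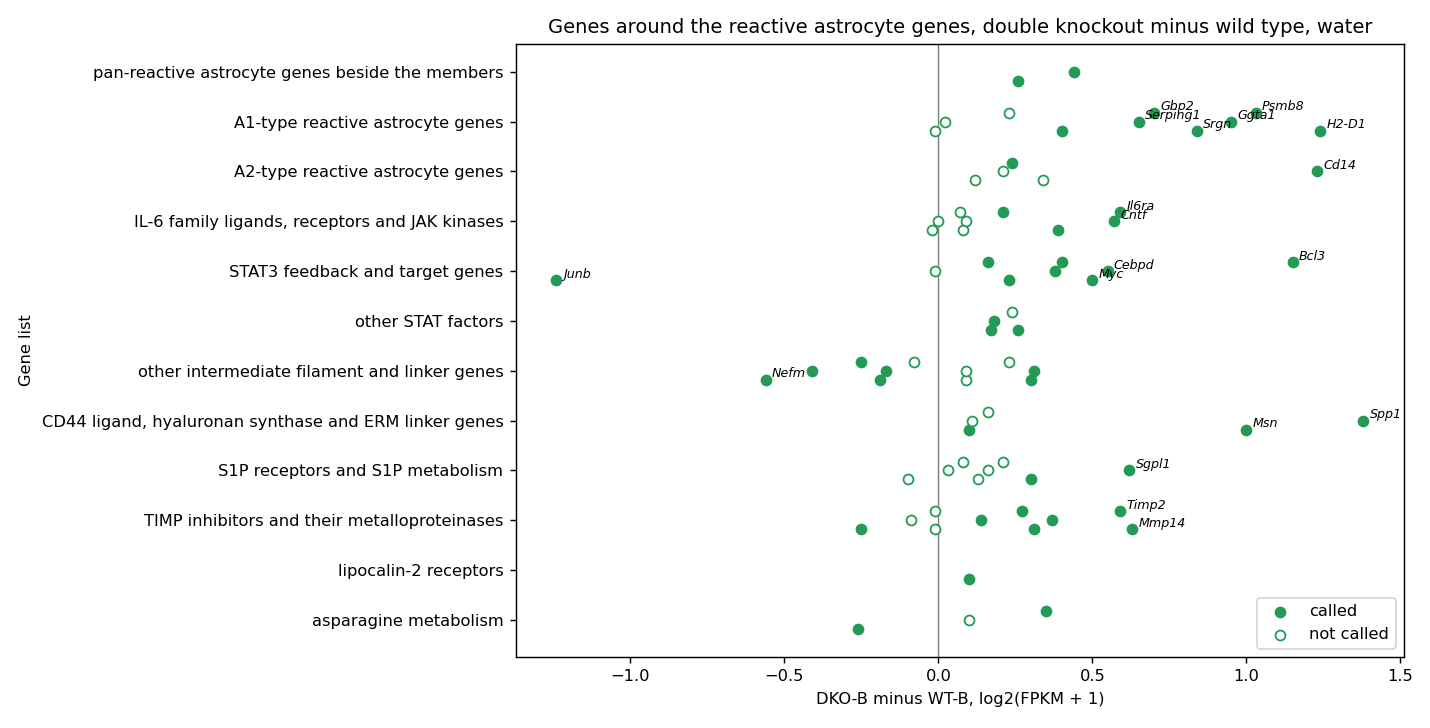
Difference of log2(FPKM + 1) of DKO-B minus WT-B (horizontal axis) for each tested gene of 12 lists around the reactive astrocyte genes, filled where called and open where not, with vertical jitter only for legibility. Most called genes lie right of 0, and the left-hand ones include Junb at -1.24 and Nefm at -0.56.

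Cd44 encodes a cell-surface receptor for hyaluronan and osteopontin that is found on reactive astrocytes and on leukocytes. Cd44 (gene 12505, chromosome 2, 102811141 to 102901669) had 1.84, 2.03 and 2.19 FPKM in DKO-N and 1.83, 1.82, 1.5 and 1.95 FPKM in DKO-B, against 0.521, 0.457, 0.52 and 0.4 FPKM in WT-N and 0.47, 0.433, 0.635 and 0.444 FPKM in WT-B. No wild-type library reached 1 FPKM and every knockout library exceeded it. The log2 change was 0.89 on water (SE 0.07, limma adjusted p = 7.04e-08) and 1.03 on nicotine (SE 0.08, limma adjusted p = 3.91e-08). Of 5 tested genes of CD44 ligands, hyaluronan synthases and membrane linkers, 3 were higher on water and none lower. The share of all tested genes called higher on water was 25.5%. Spp1, which encodes osteopontin, averaged 18.4 ± 5.49 FPKM in DKO-B and 6.2 ± 0.353 FPKM in WT-B (log2 change 1.38, limma adjusted p = 6.08e-06). Msn, which encodes the membrane linker moesin, averaged 17 ± 1.37 FPKM in DKO-B and 8.03 ± 0.859 FPKM in WT-B (log2 change 1.00, limma adjusted p = 5.53e-08). The third, Nf2, changed by 0.10 and lost its call after rescaling. Spp1 and Msn were also the 2 genes of this list called higher on nicotine, where 24.6% of all tested genes were.

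S1pr3 encodes a receptor for the lipid sphingosine 1-phosphate, and of the called genes it had the smallest log2 change. S1pr3 (gene 13610, chromosome 13, 51408618 to 51422797) had 2.99, 3.38 and 4.42 FPKM in DKO-N and 3.78, 4.74, 3.4 and 3.7 FPKM in DKO-B, against 2.39, 2.39, 1.82 and 2.12 FPKM in WT-N and 2.66, 2.61, 2.43 and 2.44 FPKM in WT-B. The genotypes did not overlap under either drink, and both knockout groups spread more widely than WT-B. The log2 change was 0.47 on water (SE 0.10, limma adjusted p = 0.00103) and 0.52 on nicotine (SE 0.10, limma adjusted p = 8.54e-04). Its exons share 45 of 4463 bases with Gm32834 on the opposite strand. Of 8 other tested genes of sphingosine 1-phosphate receptors and metabolism, 2 were higher and 6 not called on water. Over all tested genes 25.5% were called higher, so this count was near the general share. Sgpl1, the lyase that breaks the lipid down, averaged 13.4 ± 0.959 FPKM in DKO-B and 8.33 ± 0.507 FPKM in WT-B (log2 change 0.62, limma adjusted p = 5.15e-07). S1pr2, another receptor, averaged 0.893 ± 0.138 FPKM in DKO-B and 0.537 ± 0.116 FPKM in WT-B (log2 change 0.30, limma adjusted p = 0.0143). S1pr2 passed the filter only through knockout libraries, as no wild-type library reached 1 FPKM. On nicotine the same 2 genes were higher and 1 gene was lower, and the count of 3 was down to 1 without DKO-N replicate 2 or 3.

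Aspg encodes an asparaginase, an enzyme that splits asparagine, and it is a pan-reactive astrocyte marker. Aspg (gene 104816, chromosome 12, 112106683 to 112127573) had 5.86, 5.82 and 7.13 FPKM in DKO-N and 5.24, 5.46, 4.41 and 4.05 FPKM in DKO-B, against 1.18, 1.25, 0.891 and 0.977 FPKM in WT-N and 0.827, 0.903, 0.952 and 0.852 FPKM in WT-B. Knockout and wild-type libraries were far apart, and every DKO-N library lay above every DKO-B library. The log2 change between genotypes was 1.61 on water (SE 0.09, limma adjusted p = 3.61e-10) and 1.81 on nicotine (SE 0.09, limma adjusted p = 2.92e-10). Of 3 other genes of asparagine metabolism, 1 was higher, 1 lower and 1 not called on water. Over all tested genes 25.5% were higher and 12.4% lower. Asns, asparagine synthetase, averaged 42.4 ± 1.32 FPKM in DKO-B and 50.8 ± 1.09 FPKM in WT-B (log2 change -0.26, limma adjusted p = 6.95e-05), and Asrgl1, a second asparaginase, averaged 71 ± 1.01 FPKM in DKO-B and 55.6 ± 1.07 FPKM in WT-B (log2 change 0.35, limma adjusted p = 1.77e-06).

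Genes from published signatures of reactive astrocytes beyond the 10 were read from lists. Of 2 other tested pan-reactive genes, both were higher on water: Hspb1, a small heat-shock protein gene, by 0.44 and Cp, the ceruloplasmin gene, by 0.26 on the log2 scale. The count was 1 of 2 without DKO-B replicate 2 or 3 or without WT-B replicate 1. Of 10 tested genes of the A1-type signature, named for astrocytes induced by inflammation, 7 were higher and 3 not called. H2-D1, a class I histocompatibility gene that most cell types express, averaged 72 ± 5.58 FPKM in DKO-B and 29.9 ± 1.83 FPKM in WT-B (log2 change 1.24, limma adjusted p = 6.50e-10). Psmb8, an immunoproteasome subunit, and Ggta1, a galactosyltransferase, had log2 changes of 1.03 and 0.95. Of 5 tested genes of the A2-type signature, named for astrocytes after ischaemia, 2 were higher and 3 not called. These were Cd14, a lipopolysaccharide co-receptor that microglia express, at 1.23, and Ptgs2, at 0.24 on the log2 scale. Beside these counts, 25.5% of all tested genes were called higher on water. The A2-type count was 1 of 5 without WT-B replicate 1 or 3. The A2-type list held 12 genes, and those that did not pass the filter were not tested. Without the filter on low values 8 of the 12 were called, so the count of 2 depends on the filter. On nicotine the counts were 1 of 2, 7 of 10 and 2 of 5, with none lower, and the pan-reactive count ran between 0 and 2 as single libraries were left out. Whether the A1-type or the A2-type signature moved more was not tested.

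General astrocyte markers were also higher in the knockout, by less than Gfap. On water 12 of 12 markers were called higher as deposited and 11 after rescaling, with a median log2 change of 0.33 and a range of 0.18 to 0.85. Their summed level was 1744 to 1831 FPKM in DKO-B and 1373 to 1512 FPKM in WT-B, and 1809 to 1880 FPKM in DKO-N and 1472 to 1674 FPKM in WT-N. Set against one such marker, the Gfap to Aldh1l1 ratio was 13.9 ± 1.56 in DKO-B and 1.23 ± 0.0421 in WT-B (SD, n = 4 each). On nicotine 8 of the 12 were called higher as deposited and 7 after rescaling, with none lower and a median log2 change of 0.27. Of all tested genes 25.5% were called higher on water and 24.6% on nicotine, as deposited. None of the 12 markers was at 0 in all libraries of a group, so the labelled tissue held astrocyte RNA throughout.

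Markers of several other cell types, but not of all, moved with the same contrast. Microglial markers were called higher in 9 of 10 cases on water, with a median log2 change of 1.04 and sums of 478 to 539 FPKM in DKO-B and 159.8 to 179 FPKM in WT-B. Of 6 endothelial markers 4 were higher, of 4 fibroblast and meningeal markers 2, of 6 oligodendrocyte markers 4 and of 5 striatal markers 3. Of 3 tested markers of ependyma and choroid plexus 2 were higher, and of 5 mural markers 1. None was lower in these lists. No call fell on 3 oligodendrocyte precursor, 4 red blood cell or 2 tested neutrophil markers. The share of all tested genes called higher was 25.5%. Of 8 neuronal markers 2 were higher and 4 lower, and their sum was 2405 to 2561 FPKM in DKO-B and 2751 to 2876 FPKM in WT-B. On nicotine the counts higher were 7 of 10 microglial, 2 of 6 endothelial, 2 of 4 fibroblast and meningeal, 3 of 6 oligodendrocyte and 0 of 5 striatal markers. Of the 8 neuronal markers 1 was higher and 3 were lower on nicotine. There 1 mural marker and 1 marker of ependyma and choroid plexus were higher, and no oligodendrocyte precursor, red blood cell or neutrophil marker was called. Whether these counts differ between the drinks was not tested. The part of these cells in the levels of the 10 genes was not tested.

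**Figure D3:**
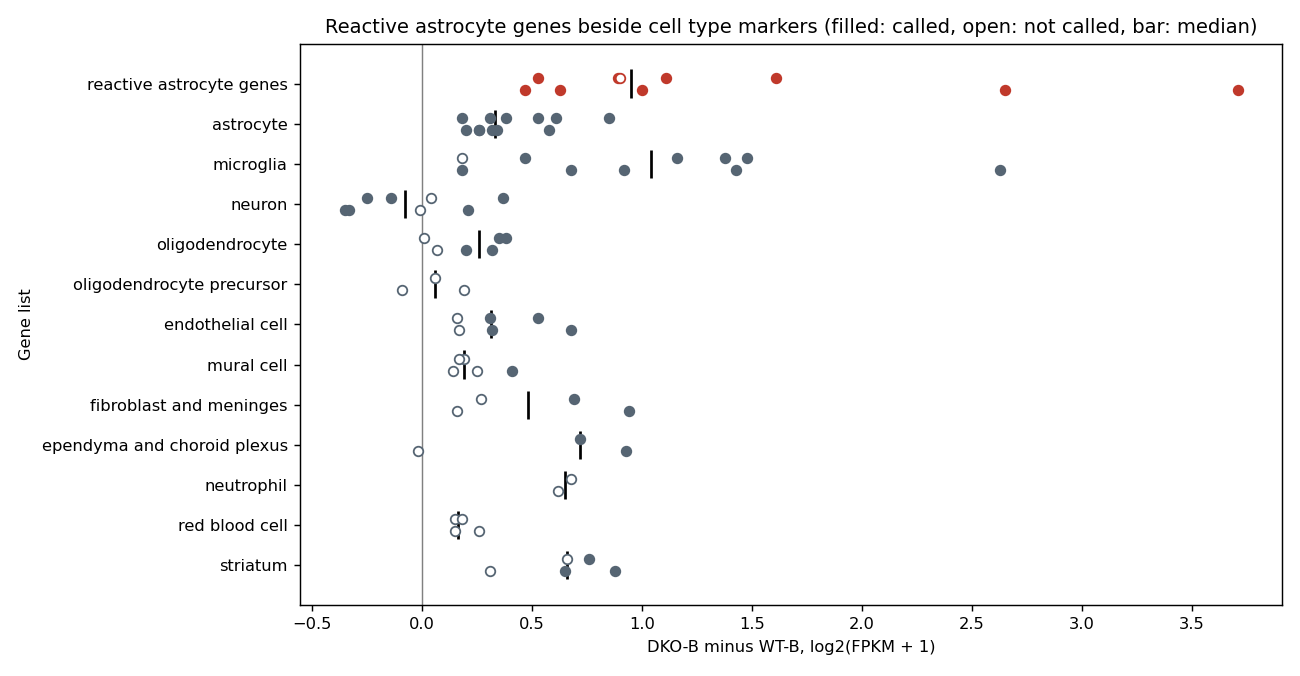
Difference of log2(FPKM + 1) of DKO-B minus WT-B (horizontal axis) for the 10 reactive astrocyte genes and for the tested markers of 12 cell types or regions, filled where called and open where not, with the median of each list as a bar. The median is 0.95 for the 10 genes, 0.33 for astrocyte markers and 1.04 for microglial markers.

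The order of the 10 levels differed between the genotypes. In WT-B the order by mean FPKM was Gfap, Vim, Stat3, Serpina3n, S1pr3, Aspg, Osmr, Cd44, Timp1 and Lcn2, where Gfap and Vim overlapped, as did each neighbouring pair from Osmr down to Lcn2. In DKO-B it was Gfap, Serpina3n, Vim, Stat3, Aspg, S1pr3, Osmr, Cd44, Lcn2 and Timp1, where Serpina3n overlapped Vim and Lcn2 overlapped Timp1. The Serpina3n to Stat3 ratio was 3.08 ± 0.342 in DKO-B and 0.709 ± 0.0661 in WT-B, and the Aspg to S1pr3 ratio 1.23 ± 0.134 in DKO-B and 0.35 ± 0.0332 in WT-B (SD, n = 4 each).

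Within a group the 10 genes did not share 1 leading library. DKO-B replicate 3 was highest for 4 genes (Gfap, Serpina3n, Timp1 and Stat3) and lowest for 3, and DKO-B replicate 2 was highest for 4 others (Vim, Aspg, Osmr and S1pr3). DKO-B replicate 4 was lowest for 5 genes, yet highest for Lcn2 and Cd44. DKO-N replicate 3 was highest for 5 genes and DKO-N replicate 1 lowest for 6. WT-N replicate 4 was highest for none and lowest for 5.

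**Figure D4:**
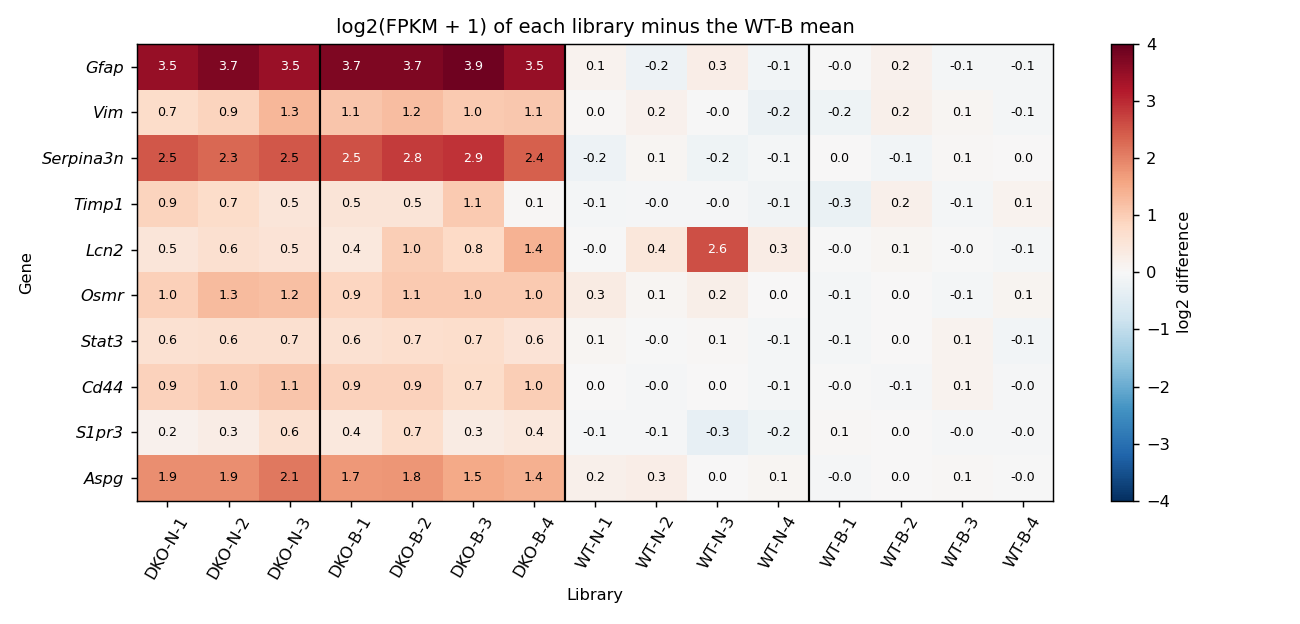
Each cell gives the log2(FPKM + 1) of 1 gene (rows) in 1 library (columns, DKO-N, DKO-B, WT-N and WT-B) minus the WT-B mean of that gene, in colour and as a number. The knockout columns are red in the Gfap, Serpina3n and Aspg rows, and the WT-N block is pale but for Lcn2 in replicate 3.

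Nicotine was compared with water within each genotype. The drinks also differ in Y-linked expression, which DKO-N replicate 2 and all WT-N libraries lack and all libraries on water have. In knockout mice (DKO-N against DKO-B) limma called none of the 10, where 0.157% of all tested genes were called (20 genes), and 2 of the 10 had an unadjusted p under 0.05. Aspg averaged 6.27 ± 0.744 FPKM in DKO-N (SD, n = 3) and 4.79 ± 0.669 FPKM in DKO-B (SD, n = 4). Its log2 change was 0.33 (95% interval 0.14 to 0.53, limma adjusted p = 0.144). Aspg was the one gene of the 10 with every DKO-N library above every DKO-B library, as for 6.91% of all tested genes. Serpina3n averaged 45.6 ± 3.18 FPKM in DKO-N and 53.8 ± 8.62 FPKM in DKO-B, and its log2 change was -0.22 (95% interval -0.43 to -0.02, limma adjusted p = 0.324). The interval of Gfap was -0.38 to 0.08 around -0.15, and that of Stat3 -0.12 to 0.12. The intervals give the sizes of difference that these libraries allow, and the lack of a call does not show that the levels were alike.

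In wild-type mice (WT-N against WT-B) limma also called none of the 10, where 0.173% of all tested genes were called, and 1 had an unadjusted p under 0.05. That gene was Lcn2, whose log2 change was 0.82 (SE 0.38, limma adjusted p = 0.556), and without WT-N replicate 3 the change was 0.24. S1pr3 averaged 2.18 ± 0.274 FPKM in WT-N and 2.53 ± 0.119 FPKM in WT-B (SD, n = 4 each). Each WT-N library lay below each WT-B library, as for 2.66% of all tested genes, with a log2 change of -0.16 (95% interval -0.36 to 0.05). Gfap had a log2 change of 0.02 (95% interval -0.20 to 0.23) and Aspg of 0.14 (95% interval -0.04 to 0.32). WT-N and WT-B differ in drink and in Y-linked expression at once, so these changes cannot be assigned to either. Limma voom on the reads also called none of the 10 in either nicotine comparison.

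**Figure D5:**
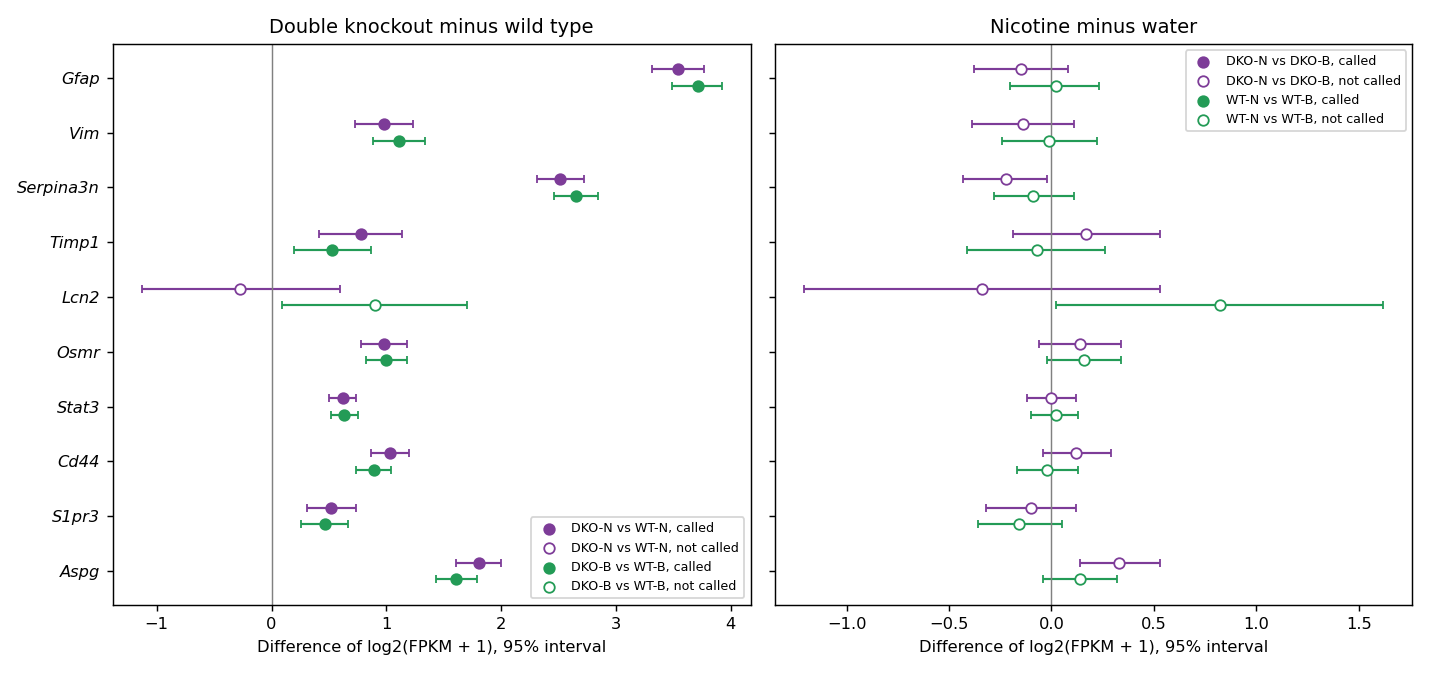
Difference of log2(FPKM + 1) with its 95% interval for the 10 genes, for the double knockout minus the wild type on nicotine and on water (left) and for nicotine minus water in each genotype (right), filled where called. On the left all genes but Lcn2 are called under both drinks, and on the right no gene is called.

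On nicotine the genotypes were compared again (DKO-N against WT-N), and 9 of the 10 genes were called higher, where 35.7% of all tested genes were called and 24.6% called higher. All 9 had no overlap between the groups, against 25.8% of tested genes, and on water 9 of the 10 had none, Lcn2 among them and Timp1 not, against 24%. The log2 change was 3.54 for Gfap (SE 0.11, limma adjusted p = 9.18e-13), 0.98 for Vim (SE 0.12, limma adjusted p = 8.57e-06), 2.51 for Serpina3n (SE 0.10, limma adjusted p = 1.11e-11) and 0.98 for Osmr (SE 0.09, limma adjusted p = 5.10e-07). DKO-N replicate 2 was the DKO-N library that lacked Y-linked expression, as the WT-N libraries did. Its place above WT-N for those 9 genes follows from the lack of overlap and is no separate test. The part of Y-linked expression in the other 2 DKO-N libraries cannot be told apart from that of genotype. Set against WT-B, with which it differs in genotype and drink at once, DKO-N had 9 of 10 genes called higher, where 37.5% of tested genes were called and 25.7% called higher, and all 10 without overlap, where 27.5% were. Lcn2 was the uncalled gene there, at 0.56 (limma adjusted p = 0.305). It was called without WT-N replicate 3 (limma adjusted p = 0.0147) and with only the groups compared (limma adjusted p = 0.00127). In both fits the filter still counted WT-N replicate 3. The S1pr3 call, at a log2 change of 0.37, was lost without DKO-N replicate 3 (0.24, limma adjusted p = 0.0797).

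The interaction asks whether the genotype difference depended on the drink. Ddx3y was expressed in every library on water, but on nicotine only in DKO-N replicates 1 and 3. The part of Y-linked expression in the interaction cannot be told apart from that of the drink. Limma called none of the 10, where 0.0157% of all tested genes were called, and none had an unadjusted p under 0.05. The estimates ran from -1.16 for Lcn2 (95% interval -2.34 to 0.02, limma adjusted p = 0.716) to 0.24 for Timp1. For Gfap the interaction was -0.16 (95% interval -0.48 to 0.15), and for Stat3 it was -0.02 (95% interval -0.18 to 0.15).

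Genes whose levels ran most like those of 4 of the 10 across the 15 libraries were found by the smallest root-mean-square difference of log2(FPKM + 1), each taken from its WT-B mean. Nearest to Gfap were Clec7a (0.240), a microglial lectin receptor, the complement gene C4b (0.299) and Lyz2 (0.338), the lysozyme gene of myeloid cells. Clec7a averaged 17.4 ± 2.44 FPKM in DKO-B and 0.169 ± 0.0585 FPKM in WT-B, and it passed the filter only through knockout libraries. Its ratio of mean FPKM was 103 and that of Gfap 13.6, so they are near on the log2(FPKM + 1) scale and not in ratio. C4b averaged 72 ± 7.78 FPKM in DKO-B and 6.03 ± 0.913 FPKM in WT-B. Nearest to Serpina3n were C1qa (0.169) and C1qb (0.222), which encode subunits of complement C1q, and Cd68 (0.196), a lysosomal gene of phagocytes. Nearest to Vim were P2ry13 (0.115), a purine receptor gene of microglia, Rhoc (0.118), a small GTPase gene, and Vip (0.127), a neuropeptide gene of interneurons. Nearest to Stat3 were Cd81 (0.071), Gdpd5 (0.075) and Abhd4 (0.079). These distances describe 15 libraries that share 4 groups, and genes with a like genotype difference come out near each other.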

How the data were processed

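Poly(A) RNA of 15 libraries was sequenced after TRIzol extraction and a TruSeq stranded kit, per the labels' protocols. The submitters' processing notes name GRCm38.p6. No aligner, counter or strand setting is given in the sources used here. The authors deposited 1 table of FPKM per library, with no counts. Dividing each FPKM by what 1 read was worth gave whole numbers for 100.0% of tested genes, within 0.02 reads, and these are the reads quoted. The tables held 21878 entries, 3760 of them at 0 throughout, and 27 names turned into dates were restored from gene numbers.

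Groups came from the labels. Values were tested as log2(FPKM + 1) for 12728 genes with limma 3.58.1 in R 4.3.3, an intensity trend, 1 fit of all 15 libraries, a term per group and no block. Self-tests on simulated data preceded it. Plots used Python 3.11.15 and matplotlib 3.10.9. The 10 genes, the gene lists and the tests were chosen with earlier results of these data known. Lists overlap in Clcf1 and Sphk1. Named were the 10 genes, Psen2, of each pathway list up to 3 called genes with the smallest p on water and 1 in each other comparison (the highest mean where none was called), of each marker list the 3 highest, and for 4 genes the 3 most alike. Osm, Il6, Lrp2, Serpina3g, Stat5a, Socs3, Tyk2, Nefh, Des, Aldh1l1, Ly6g, Elane and Ddx3y were added to these with their values known. Promoters came from a RefSeq table (GRCm38.p6, 10 of 10 matched) and exon overlaps from GENCODE M21. Alternatives were rescaling by median-of-ratios factors, no filter or a filter at 5 FPKM, a pseudocount of 0.1 FPKM, no trend, only the groups compared, a replicate block, limma voom on the recovered reads and leaving out each library.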

Additional observations from a re-analysis of the deposited data

Results flagged for a closer look

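Among 30 sets of 4 libraries (10 genes in 3 groups), 2 had a library far from the others of its group by Dixon's test, which flags about 1 set in 20 by chance. Lcn2 was at 5.65 FPKM in WT-N replicate 3, where the other WT-N libraries were at 0.123 to 0.524 FPKM and the gap took 0.927 of the group's range. Osmr was at 1.93 FPKM in DKO-B replicate 1, where the other DKO-B libraries were at 2.29 to 2.33 FPKM and the gap took 0.888 of the range. The DKO-N group, with 3 libraries, was not tested in this way.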

How the results depend on the processing

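Under the alternatives run, the log2 changes of the 10 genes were followed in DKO-B against WT-B, DKO-N against WT-N and DKO-N against WT-B. Those of Lcn2 were also followed in both nicotine comparisons. Of these, 485 kept their direction and their side of the threshold, 2 lost a call, 6 gained one and 2 turned. The nicotine changes of the other genes and the interaction estimates were not part of this count. Each of the 2 that turned was Lcn2 in DKO-N against WT-N, at 0.06 with limma voom and 0.31 without WT-N replicate 3, where leaving out single libraries gave -0.54 to 0.31. Lcn2 in DKO-B against WT-B was called with a pseudocount of 0.1 FPKM (2.37, limma adjusted p = 0.0102) and with only the groups compared (0.90, limma adjusted p = 7.01e-04). It was also called with limma voom (2.82, limma adjusted p = 0.0168) and without WT-N replicate 3 (limma adjusted p = 2.48e-04). Leaving out that library was a choice made after seeing the data, and the filter still counted it. With a filter at 5 FPKM, which 5 of the 10 genes pass, 5 were called in each of DKO-B against WT-B, DKO-N against WT-N and DKO-N against WT-B. Leaving out each library gave 8 to 10 called genes in DKO-B against WT-B, 9 to 9 in DKO-N against WT-N and 8 to 10 in DKO-N against WT-B, and 0 in both nicotine comparisons and the interaction. With replicate number as a block, 9, 9 and 9 of the 10 were called in these 3 comparisons and 0 in the others. The labels do not say whether the numbers pair libraries. Of 21 same-number pairs, 2 had a correlation of deviations over 0.1, and 2 of 15 libraries correlated best with their own number. These correlations cannot show whether libraries were paired. Of 1326 counts of pathway genes, 74 moved by over 1.5 times, 15 of them with the 5 FPKM filter. Rescaling took the calls over all genes in DKO-B against WT-B to 2430 higher and 2341 lower, where 3252 and 1584 were called as deposited, and in DKO-N against WT-N to 2142 and 2217, where 3133 and 1405 were. It took the median change over all genes on water to 0.0003, where it was 0.048. In DKO-N against DKO-B limma called 20 of all genes, limma voom 71 higher and 16 lower, and with only those 2 groups fitted none was called. Timp1 and Lcn2, at 1 to 30 reads in most libraries, are limited by depth.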
